A study of Mus musculus with 24 samples.

Results

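The response to blebbistatin was compared between the oocytes and the granulosa cells of cultured mouse ovarian follicles. For each gene, the change in oocytes (blebbistatin minus control) was set against the change in granulosa cells, and the difference of these changes, the interaction, was tested. It is given below as a log2 difference, oocyte change minus granulosa change, with its standard error (SE). The genes of interest, called genes of both cell types, had a mean of at least 5 CPM (counts scaled to the library total) in both control groups. They were 7886 of the 20601 genes tested, out of 78298 in the deposited tables. In 7193 of them the control levels of the cell types lay within 10-fold of each other. The level does not show that both cell types express a gene, since 11 of 14 granulosa markers reached it in the oocyte controls too. A further 2952 genes reached 5 CPM in the oocyte controls only (oocyte side), 2129 in the granulosa controls only (granulosa side) and 7634 in neither, and these are described apart.

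The follicles were wild-type, embedded in alginate, a hydrogel, and grown to day 3 in medium with serum, insulin, transferrin, selenium and follicle stimulating hormone (FSH, at 50 mIU/ml), all of which the controls received too. The groups compared were control and blebbistatin (20 µM) for each cell type, with 4 libraries each and 16 in all. A further 4 libraries per cell type from follicles in dextran (10 kPa) served the estimate of the spread. Follicles past 180 µm were pulled apart mechanically into oocytes and granulosa cells, with 1 to 2 oocytes or a small pool of granulosa cells per library. Replicates are labelled biological, with no animal, culture or day named for any library, so the p-values measure the spread between these libraries, which may be technical. Strain, age and a solvent control are not named in the labels either.

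Blebbistatin blocks the ATPase of non-muscle myosin II, the motor that pulls on actin filaments and sets the tension of the cell cortex. Actin assembly also acts on transcription: monomeric actin holds back cofactors of the transcription factor SRF, which drives many genes of the actin cytoskeleton, and tension acts on YAP and TAZ, cofactors of the TEAD factors. In the follicle, granulosa cells surround the oocyte and are coupled to it by gap junctions. The oocyte secretes GDF9 and BMP15, and the granulosa cells return metabolites, Kit ligand and signals that govern meiosis. A growing oocyte stores a large part of its messenger RNA for later use, and its transcription fades as it reaches full size.

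Total counts ranged from 14244103 to 22431013 per library. Oocyte markers summed to 15784 to 26200 CPM in the oocyte libraries and to at most 34.6 CPM in the granulosa libraries. Granulosa markers summed to 20989 to 25218 CPM in the control and 15875 to 18510 CPM in the blebbistatin granulosa libraries, with all 14 markers detected. Within these limits the labelled cell types were borne out, but 4 libraries stood apart by granulosa or macrophage markers. In oocyte controls 1 and 2, the level of 7 granulosa genes (Inha, Amh, Amhr2, Foxl2, Hsd17b1, Fst and Inhbb) was 2.52% and 12.9% of that in the granulosa controls. It was 0.287% and 0.0939% in oocyte controls 3 and 4, and 1.54%, 0.36%, 0.354% and 0.127% in oocyte blebbistatin libraries 1 to 4. In granulosa blebbistatin libraries 1 and 2, the 10 macrophage and leukocyte markers summed to 608 and 913 CPM, against 2.39 and 4.13 CPM in libraries 3 and 4 and 1.36 to 9.59 CPM in the controls, where Adgre1 and C1qa were at 0. The 13 markers of theca, stroma and smooth muscle, none of them at 0 in either group, summed to 1445, 357, 977 and 390 CPM in granulosa blebbistatin libraries 1 to 4 and to 325, 21.8, 62.6 and 332 CPM in the controls. On the mean log2(CPM + 1) of the list these groups differed with an exact two-sided permutation p of 0.0286, which is the lowest possible for groups of 4, and an adjusted p of 0.206 over 18 such tests. The granulosa markers gave the same p and adjusted p in these groups, at 6.98 ± 0.235 with blebbistatin and 7.70 ± 0.306 in controls (SD, n = 4). Granulosa blebbistatin library 1 had 14538 genes detected, against 18605 to 21042 in blebbistatin libraries 2 to 4 and 20730 to 24297 in the controls. The means were 18450 ± 2790 genes with blebbistatin and 22710 ± 1480 in controls (SD, n = 4, exact permutation p = 0.0571, adjusted 0.206). Mitochondrial transcripts held 6.76% ± 2.39 (SD, n = 4) of counts in blebbistatin and 3.48% ± 0.868 in control granulosa libraries (exact permutation p = 0.0571, adjusted 0.206). The counts of genes called by the interaction, the split of its direction and the list medians are therefore also given without libraries in doubt, an alternative chosen after seeing the data. Oocyte blebbistatin library 1 was kept there, so granulosa RNA stayed uneven between the oocyte groups. Oocyte control 4 was kept as well, with 107 CPM of erythroid markers against 0.159, 0.947 and 0.136 CPM in oocyte controls 1 to 3. Its sum of oocyte markers, 15784 CPM, was the lowest of the oocyte libraries compared. Where oocyte controls 1 and 2 were left out, only controls 3 and 4 made up the group. Counts of groups that do not overlap are given with all libraries only. In such bulk libraries, fewer cells of a type and less RNA per cell cannot be told apart.

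**Figure D1:**
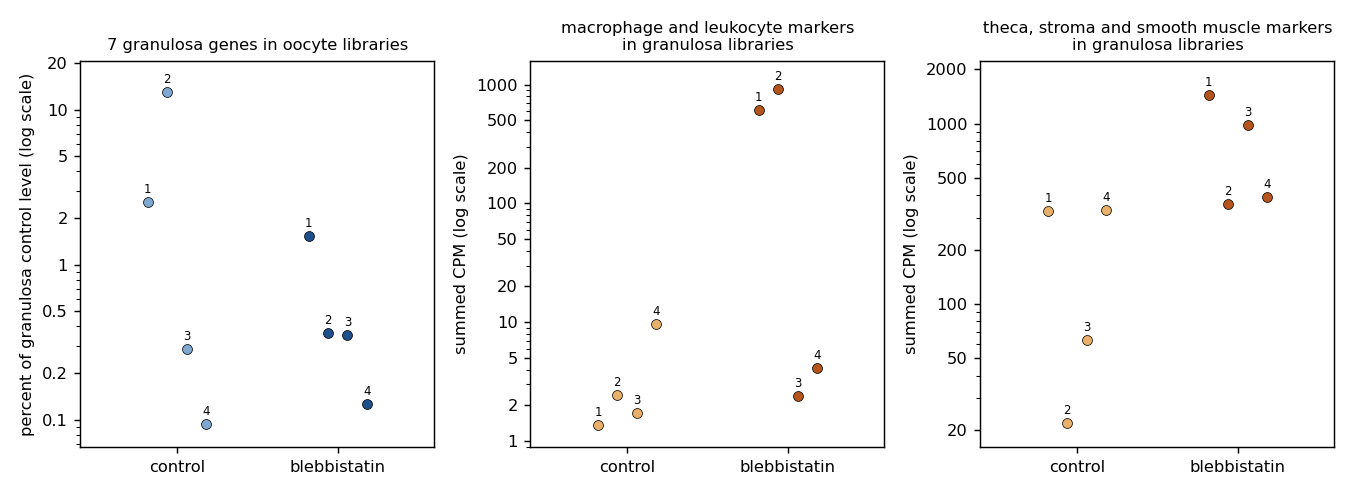
Markers of other cells in each library, labelled by replicate number, on log scales. Left, the summed level of 7 granulosa genes in oocyte libraries as a percent of the granulosa controls; middle and right, summed CPM of macrophage and stromal markers in granulosa libraries. Oocyte controls 1 and 2 reach 2.52% and 12.9%, and granulosa blebbistatin libraries 1 and 2 reach 608 and 913 CPM of macrophage markers.

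Among the genes of both cell types, blebbistatin was followed by different changes in Uchl1 and in Tpm1. Uchl1 is a ubiquitin hydrolase abundant in oocytes and neurons, and Tpm1 the tropomyosin that lines actin filaments. Uchl1 fell in granulosa cells to 0.45 of its control level and stood at 1.18 of it in oocytes, while Tpm1 rose 3.49-fold in granulosa cells and stood at 0.884 of its control level in oocytes. Over all 20601 genes the interaction passed an adjusted p of 0.05 for 10, or 0.0485%, by edgeR's quasi-likelihood test with Benjamini-Hochberg adjustment. In 9 of them (0.0437%) the oocyte change lay above the granulosa change, and in 1 (0.00485%) below it. The genes of both cell types made up 2 of the 10, 1 in each direction. The other 8 were genes of the oocyte side or under the level in both. At an unadjusted p under 0.05 the interaction called 705 of the 7886 genes (8.94%), against 11.3% of all genes tested.

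Within each cell type the same fit gave these counts; a difference between the counts was not tested. In granulosa cells 127 genes (0.616% of those tested) passed an adjusted p of 0.05, 42 higher (0.204%) and 85 lower (0.413%), and 38 of them were genes of both cell types (15 higher, 23 lower). In oocytes 0 genes passed by the same test, with 1548 (7.51%) at an unadjusted p under 0.05, of which 1449 (7.03%) were lower. DESeq2 called 193 genes in oocytes and 689 in granulosa cells, and limma voom 2 and 448. Fitting each cell type apart gave 0 and 1. Without oocyte control 4 the order turned, with 140 genes in oocytes and 108 in granulosa cells. The control and blebbistatin libraries did not overlap for 1088 genes (5.28%) in granulosa cells and 551 (2.67%) in oocytes. Among the genes of both cell types these were 193 higher and 290 lower in granulosa cells, and 20 higher and 246 lower in oocytes. Over all genes tested the shares were 1.9% higher and 3.38% lower in granulosa cells and 0.616% higher and 2.06% lower in oocytes. The changes in the cell types bore almost no relation to each other across the 7886 genes: Pearson's r was 0.0448 and Spearman's rho -0.0167, and 50.1% of genes had the same sign. This is a description across genes, which share the libraries and their scaling and are not independent replicates.

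The direction of the weaker differences rested on the oocyte controls, and the size of the imbalance varied with the scaling. Of the 705 genes, the oocyte change lay above the granulosa change in 135 and below it in 570, against 3.8% above and 7.48% below among all genes tested. With TMM factors set apart in each cell type the split was 215 against 467, and with median-of-ratios factors it was 259 against 412. It turned to 377 above and 222 below without oocyte controls 1 and 2, and without all 4 libraries in doubt it was 618 above and 276 below. The median interaction over the 7886 genes was -0.11 with all libraries and 0.077 without oocyte controls 1 and 2. The median change in oocytes was -0.104 and 0.033 in the same settings, and that in granulosa cells was -0.029.

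**Figure D2:**
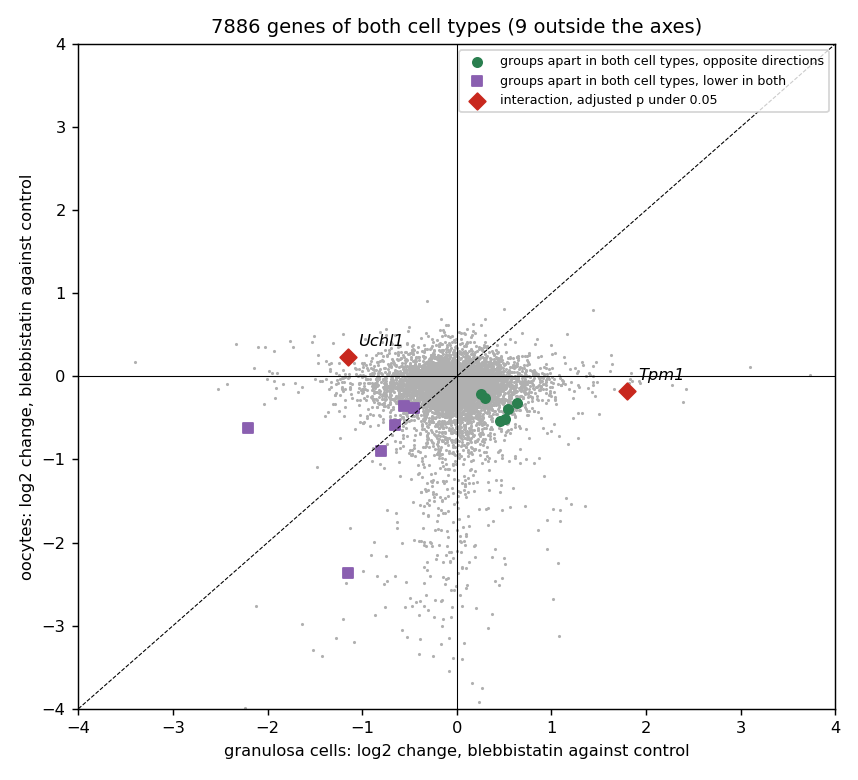
Log2 change after blebbistatin in oocytes against that in granulosa cells for 7886 genes of both cell types, with 9 genes outside the axes and the dashed line marking equal change. Diamonds mark Uchl1 and Tpm1, which passed the interaction test; circles and squares mark genes whose blebbistatin and control libraries did not overlap in either cell type. Larger granulosa changes lie along the horizontal axis, where the oocyte change is near 0.

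The promoters of the called pair are shown because the actin and tension pathways act through known DNA motifs. The sequences run from 250 bases before to 50 bases after the gene's start in RefSeq, on build GRCm38.p6, which differs from the build of the deposited counts. Uchl1 lies on the plus strand at chr5:66675871-66676170 and Tpm1 on the minus strand at chr9:67049164-67049463. Capitals mark the TEAD core GGAATG, and the CArG box, CCWWWWWWGG with W for A or T, is the motif that SRF binds. Only exact matches were counted, on both strands and in 1 window per gene, so near matches and other promoters were not examined.
Uchl1: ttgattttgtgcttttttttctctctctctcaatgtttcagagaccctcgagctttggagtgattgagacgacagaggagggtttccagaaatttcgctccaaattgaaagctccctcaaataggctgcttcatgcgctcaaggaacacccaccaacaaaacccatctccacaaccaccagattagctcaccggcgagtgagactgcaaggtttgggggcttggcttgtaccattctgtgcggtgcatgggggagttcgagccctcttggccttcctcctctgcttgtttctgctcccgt
Tpm1: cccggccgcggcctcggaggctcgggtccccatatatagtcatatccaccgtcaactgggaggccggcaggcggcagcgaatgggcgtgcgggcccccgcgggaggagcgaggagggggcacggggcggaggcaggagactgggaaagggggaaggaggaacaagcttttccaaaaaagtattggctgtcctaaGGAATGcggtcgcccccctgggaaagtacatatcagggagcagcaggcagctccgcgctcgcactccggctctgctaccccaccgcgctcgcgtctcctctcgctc
The Tpm1 window held 1 TEAD core, 56 bases before the start, and 0 CArG boxes, and the Uchl1 window held 0 of each. Of 32851 RefSeq promoters of 300 bases, 4817 (14.7%) held the TEAD core and 535 (1.63%) a CArG box.

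Uchl1 (ENSMUSG00000029223) stood at 54.0, 50.4, 49.8 and 42.9 CPM in granulosa controls 1 to 4. In the granulosa blebbistatin libraries it stood at 15.0, 29.0, 21.6 and 23.0 CPM, each below every control. In oocytes it stood at 995, 929, 1173 and 1264 CPM in the controls and at 1371, 1281, 1334 and 1153 CPM with blebbistatin, where the groups overlapped. The means were 49.3 ± 4.62 and 22.2 ± 5.74 CPM in granulosa cells and 1090 ± 155 and 1285 ± 95.4 CPM in oocytes (SD, n = 4 each). In dextran it averaged 57.9 ± 12.1 CPM in granulosa cells and 1132 ± 15.9 CPM in oocytes, near the controls of each. The log2 change was -1.15 ± 0.16 (SE, adjusted p = 0.0023, edgeR) in granulosa cells and 0.24 ± 0.16 in oocytes. The interaction was 1.39 ± 0.22 (SE, adjusted p = 0.0261, edgeR). It kept its sign in 29 of 29 alternatives and passed the threshold in 19 of them. Leaving out 1 library at a time gave 1.24 to 1.55, with 11 of 16 such fits past the threshold. Without oocyte controls 1 and 2, its lowest oocyte controls, the interaction was 1.23 with an adjusted p of 0.12.

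The granulosa level of Uchl1 was 4.52% of its oocyte level, and RNA of oocyte genes was measured in the same libraries. The level of 7 oocyte genes in the granulosa libraries was at most 0.0228% of that in the oocyte controls. The part of oocyte RNA in the granulosa level of Uchl1 was not tested. An antisense transcript overlaps the start of Uchl1, and whether strand was used in the counting is not given in the sources used here. Reads from the stretch the pair shares can therefore not be told apart.

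Tpm1 (ENSMUSG00000032366) stood at 213.8, 96.2, 122.9 and 207.9 CPM in granulosa controls 1 to 4 and at 640.9, 402.3, 745.9 and 448.0 CPM with blebbistatin. The lowest blebbistatin library lay above the highest control. The oocyte values were 33.9, 34.8, 31.3 and 30.5 CPM in the controls and 29.4, 36.1, 25.3 and 24.7 CPM with blebbistatin, and these groups overlapped. Means were 160 ± 59.6 and 559 ± 162 CPM in granulosa cells and 32.6 ± 2.06 and 28.9 ± 5.24 CPM in oocytes (SD, n = 4 each). Dextran gave 234 ± 73.0 CPM in granulosa cells and 25.97 ± 3.04 CPM in oocytes. Tpm1 rose in granulosa cells by 1.80 ± 0.26 on the log2 scale (SE, adjusted p = 0.00305, edgeR), and its oocyte change was -0.18 ± 0.26. The interaction was -1.98 ± 0.36 (SE, adjusted p = 0.046, edgeR). Its sign held in 29 of 29 alternatives and it passed the threshold in 10. Leaving out 1 library at a time gave -2.15 to -1.80, with 4 of 16 such fits past the threshold.

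Smooth muscle and stroma make much tropomyosin, and the stromal markers moved with Tpm1. Granulosa blebbistatin libraries 1 and 3, with 1445 and 977 CPM of stromal markers, had 641 and 746 CPM of Tpm1, and libraries 2 and 4, with 357 and 390 CPM, had 402 and 448 CPM. Granulosa controls 1 and 4, with 325 and 332 CPM of stromal markers, had 214 and 208 CPM of Tpm1. The part of stromal cells in the difference was not tested. Granulosa blebbistatin library 3, with 977 CPM of stromal markers, was kept in each of the fits that follow, so they are no test of it. Without granulosa blebbistatin libraries 1 and 2 the interaction was -2.08 (adjusted p = 0.0162, edgeR), without oocyte controls 1 and 2 it was -1.90 (adjusted p = 0.183), and without all 4 it was -1.998 (adjusted p = 0.0639).

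**Figure D3:**
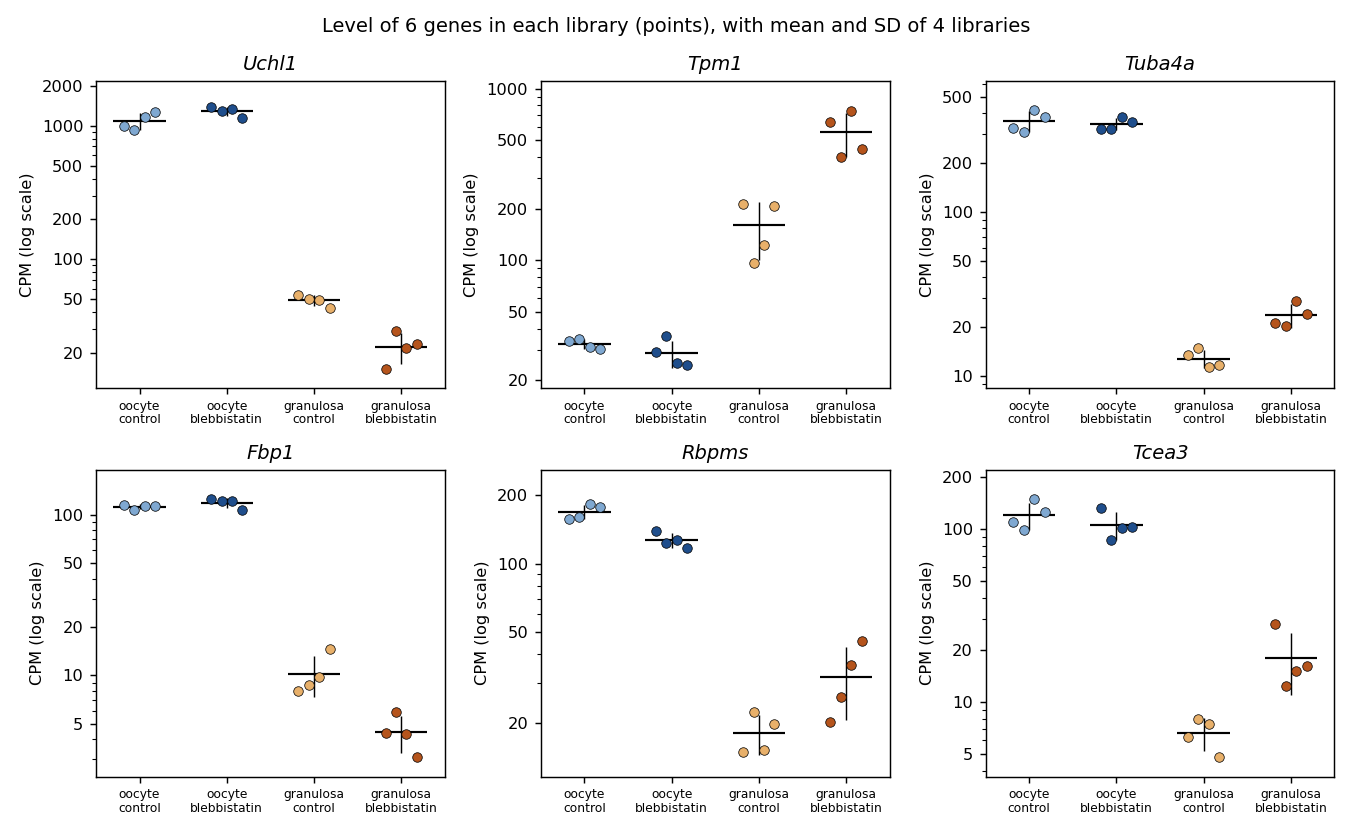
CPM of 6 genes in each library (points, log scale), with the mean (horizontal line) and SD (vertical line) of 4 libraries per group. Granulosa levels of Uchl1 and Fbp1 are lower and those of Tpm1, Tuba4a and Tcea3 higher with blebbistatin without overlap; in oocytes only Rbpms, of these 6, has groups that do not overlap.

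The next 4 genes in each direction did not pass the interaction test, with adjusted p from 0.0666 to 0.122 (edgeR). In all 8 the interaction kept its sign in 29 of 29 alternatives. The alternatives refit the same libraries, and these genes, like Uchl1 and Tpm1, were picked for their small p. A kept sign is therefore not separate support. Of the 8 genes, Fbp1, Nrsn1, Polrmt and Nhej1 had an oocyte change above the granulosa change. All 4 fell in granulosa cells by the test within that cell type. Fbp1, the fructose bisphosphatase of gluconeogenesis, stood at 7.94, 8.72, 9.81 and 14.5 CPM in the granulosa controls and at 4.40, 5.93, 4.29 and 3.10 CPM with blebbistatin. Its oocyte means were 112 ± 4.02 and 118 ± 7.85 CPM (SD, n = 4), its granulosa change was -1.204 ± 0.19 (SE, adjusted p = 0.00604, edgeR) and its interaction 1.29 ± 0.27 (adjusted p = 0.0869). Nrsn1, a membrane protein of vesicles known from neurons, was read in every granulosa control, at 7.90, 19.2, 10.5 and 7.64 CPM. In the blebbistatin libraries it was read in library 2 alone, at 1.22 CPM, while the oocyte means were 16.2 ± 5.18 and 18.5 ± 4.79 CPM. This was 1047 counts against 23 in the granulosa groups, and the granulosa change passed with an adjusted p of 0.00862 (edgeR). Polrmt, the RNA polymerase of mitochondria, had granulosa means of 20.1 ± 4.68 CPM in controls and 8.49 ± 1.93 CPM with blebbistatin (SD, n = 4), a fold of 0.422, against 1.12 in oocytes. Nhej1, a factor of DNA end joining, had granulosa means of 10.9 ± 0.35 and 5.48 ± 1.73 CPM, a fold of 0.503, against 1.11 in oocytes. For both, the granulosa libraries did not overlap and the oocyte libraries did.

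Tuba4a, Tcea3, Rad23b and Rbpms had an oocyte change below the granulosa change. Tuba4a, an alpha tubulin, stood at 13.4, 14.8, 11.3 and 11.7 CPM in the granulosa controls and at 21.0, 20.2, 28.7 and 23.9 CPM with blebbistatin. It rose in granulosa cells by 0.88 ± 0.13 on the log2 scale (SE, adjusted p = 0.00321, edgeR), with an interaction of -0.94 ± 0.18 (adjusted p = 0.0666). Its oocyte means, 359 ± 51.1 and 344 ± 29.1 CPM, lay within their spread of each other. Tcea3, a transcription elongation factor, rose 2.7-fold in granulosa cells, from 6.63 ± 1.41 to 17.9 ± 6.98 CPM (SD, n = 4; adjusted p = 0.00701, edgeR), and its oocyte means were 120 ± 21.6 and 106 ± 19.3 CPM. Library 1 held the highest Tcea3 value with blebbistatin in each cell type, 28.1 CPM in granulosa cells and 133 CPM in oocytes. Rbpms, an RNA-binding protein, differed from these in that the oocyte groups did not overlap. Its oocyte values were 156.9, 160.2, 182.2 and 177.1 CPM in controls and 139.0, 123.4, 127.0 and 116.7 CPM with blebbistatin. In granulosa cells it rose from 18.03 ± 3.57 to 31.8 ± 11.2 CPM (SD, n = 4; adjusted p = 0.0493, edgeR), although these groups overlapped.

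Rad23b, which shuttles ubiquitinated proteins to the proteasome and assists DNA repair, had groups that did not overlap in either cell type, in opposite directions. It stood at 84.1, 76.0, 65.4 and 67.4 CPM in granulosa controls and at 129.4, 85.3, 97.1 and 104.3 CPM with blebbistatin. In oocytes it stood at 111.5, 171.2, 114.5 and 115.9 CPM in controls and at 95.3, 89.6, 80.5 and 95.1 CPM with blebbistatin. This pattern, higher in granulosa cells and lower in oocytes without overlap in either, occurred in 6 of the 20601 genes (0.0291%), and all 6 were genes of both cell types. The other 5, chosen after their values were seen, were Pcgf6, a Polycomb subunit, Ubqln1, another ubiquitin shuttle, Eif3d, an initiation factor of translation, Cenpa, the histone of centromeres, and Ccser2. Their folds were 1.2 to 1.56 in granulosa cells and 0.69 to 0.865 in oocytes, and none of the 6 passed the interaction test (adjusted p from 0.0869 to 0.289, edgeR). Of the 7886 genes of both cell types, 193 were higher in granulosa cells and 246 lower in oocytes without overlap, each counted alone. Whether 6 genes exceed what these counts give together was not tested. The reverse pattern, higher in oocytes and lower in granulosa cells, occurred in 0 genes of both cell types and in 2 of all genes tested (0.00971%).

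Shared changes were as rare. Of all genes tested 0 (0%) were higher in both without overlap and 6 (0.0291%) were lower in both, and these 6 were genes of both cell types. Of these, 3 are named here after their values were seen. Cystm1 fell in granulosa cells from 32.7 ± 6.45 to 7.11 ± 4.68 CPM (SD, n = 4; adjusted p = 0.00701, edgeR), and its oocyte means were 11.0 ± 2.50 and 7.11 ± 1.48 CPM. Wdr59, a regulator of the mTOR pathway, had means of 173 ± 49.0 and 77.7 ± 12.4 CPM in granulosa cells and 10.3 ± 6.998 and 2.01 ± 0.508 CPM in oocytes. Its oocyte controls 1 and 2 stood at 13.5 and 18.7 CPM and controls 3 and 4 at 4.90 and 4.26 CPM, the first pair being the libraries with the most granulosa RNA. The interaction went from -1.21 to 0.06 without all 4 libraries in doubt, and the part of granulosa RNA in it was not tested. Pced1b had folds of 0.68 in granulosa cells and 0.78 in oocytes.

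In 2 genes at like control levels in both cell types the oocyte change was the larger part of the difference. Ash2l, a subunit of histone methyltransferase complexes, stood at 85.1, 92.8, 68.9 and 79.9 CPM in oocyte controls and at 42.4, 38.7, 46.8 and 40.6 CPM with blebbistatin, a fold of 0.516. Its granulosa means were 76.4 ± 13.6 and 83.1 ± 19.7 CPM (SD, n = 4). Anp32b, a nuclear histone chaperone, had oocyte means of 281 ± 63.3 and 153 ± 16.5 CPM, without overlap, and granulosa means of 305 ± 65.0 and 348 ± 58.3 CPM. Both were named after their values were seen. Their interactions were -1.08 ± 0.23 and -1.06 ± 0.23 (SE) and did not pass (adjusted p = 0.0909 and 0.0925, edgeR). Their oocyte changes, -0.96 ± 0.17 and -0.87 ± 0.17, did not pass within oocytes either (adjusted p = 0.162 and 0.186).

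The number of genes called varied with the granulosa blebbistatin libraries. Of genes of both cell types, the interaction called 3 without library 1, 27 without library 2, 1 without library 3 and 3 without library 4. Over all genes tested these fits called 8, 106, 14 and 22, against 10 with all libraries. The count was highest without library 2 and, less so, higher without libraries 4 and 3. The cause was not tested. Without libraries 1 and 2 the interaction called 30 genes of both cell types, and without these and oocyte controls 1 and 2 it called 18. The sets of 27, 30 and 18 genes shared 10. Among them were Uchl1, Fbp1, Nrsn1, Nhej1, Tuba4a, Tcea3, Rbpms and Ash2l, already described. With only oocyte controls 1 and 2 left out, edgeR called 0 genes of both cell types.

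The myosin II chains and their kinases, the target of the drug and its regulators, had 8 of 12 listed members in both cell types, and 0 passed the interaction test. All 8 had an oocyte change below the granulosa change, against 4829 of all 7886 genes, with a median of -0.38 against -0.11. At an unadjusted p under 0.05, 3 of the 8 lay below 0, against 570 of all 7886. The median was 0.03, with 3 of 8 below 0 and 1 at that p, without oocyte controls 1 and 2. Myh10, the heavy chain IIB, stood at 82.5 ± 11.6 and 91.1 ± 12.4 CPM in granulosa cells and 9.02 ± 6.88 and 7.59 ± 3.64 CPM in oocytes (control and blebbistatin, SD, n = 4). Its interaction of -0.39 ± 0.48 became 0.30 without oocyte controls 1 and 2. Rock2, a kinase that switches myosin II on, and Myl12a, a regulatory light chain, had interactions of -1.29 ± 0.51 and -0.37 ± 0.15 (adjusted p = 0.361 and 0.369, edgeR). Myh9, the heavy chain IIA, belonged to the granulosa side, with 14.3 ± 1.94 and 12.1 ± 2.79 CPM there and 4.93 ± 1.67 and 6.49 ± 2.28 CPM in oocytes. Myl9, a light chain also made by smooth muscle, stood at 42.9, 4.07, 13.3 and 14.8 CPM in granulosa controls and at 124, 68.3, 115 and 74.6 CPM with blebbistatin. In the oocyte libraries it was read in blebbistatin library 2 alone, at 0.509 CPM. Its granulosa change of 2.34 ± 0.90 did not pass (adjusted p = 0.293), and its highest values again lay in libraries 1 and 3, those with the most stromal markers.

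Of 30 listed actin genes, SRF targets and cofactors, 18 were genes of both cell types. The interaction called Tpm1 alone among them, and 5 of the 18 including Tpm1 lay below 0 at an unadjusted p under 0.05, against 570 of all 7886 genes. Without oocyte controls 1 and 2 these were 3, against 222 of 7886, and the median went from -0.34 to 0.004. Actn1, which cross-links actin filaments, had granulosa means of 24.7 ± 5.17 and 43.4 ± 11.9 CPM and oocyte means of 75.6 ± 9.54 and 56.7 ± 4.91 CPM (SD, n = 4), with no overlap in oocytes. Its interaction of -1.23 ± 0.29 did not pass (adjusted p = 0.127, edgeR). The cytoplasmic actins had interactions of -0.84 ± 0.32 for Actb and -0.52 ± 0.32 for Actg1 (adjusted p = 0.353 and 0.592, edgeR). Without oocyte controls 1 and 2 these were -0.26 for Actb and 0.09 for Actg1. Fhl2, an SRF target that binds focal adhesions, was a gene of the granulosa side, at 9.44 ± 4.99 CPM in controls and 47.0 ± 21.1 CPM with blebbistatin, and at under 0.41 CPM in each oocyte library. Its granulosa change of 2.31 ± 0.63 did not pass (adjusted p = 0.0998).

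Of the listed YAP and TAZ targets 1 of 22 was a gene of both cell types. Ccn1, a matrix protein and YAP target, stood at 22.1 ± 13.6 and 46.0 ± 29.5 CPM in granulosa cells and below 1 CPM in each oocyte library. Ccn2, its relative, was under 5 CPM in both control groups, with granulosa values of 0.595, 0.163, 0.337 and 3.25 CPM in controls and 11.1, 0.847, 1.36 and 3.37 CPM with blebbistatin. In neither did the interaction pass (adjusted p = 0.89 and 0.673, edgeR), and the YAP output of the cell types could therefore not be compared on this list. Of 18 genes of focal adhesions and integrins, 11 were genes of both cell types, 0 were called and the median interaction was -0.41, or 0.08 without oocyte controls 1 and 2. Itga6, the laminin receptor subunit, had granulosa values of 100, 46.3, 19.6 and 25.8 CPM with blebbistatin and 16.5 to 25.1 CPM in controls, so its higher mean rested on libraries 1 and 2. Lamb2, a laminin chain of basement membranes, had an interaction of 0.87 ± 0.37 (adjusted p = 0.393), with a granulosa fold of 0.587 and an oocyte fold of 1.07.

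The ferritin genes Ftl1 and Fth1 were higher with blebbistatin in all 4 granulosa libraries than in any control, and their oocyte groups overlapped, but the interaction did not pass. Of the 21 listed NRF2, AhR and ferritin genes, 13 were genes of both cell types, 0 were called, and 7 lay below 0 at an unadjusted p under 0.05, against 570 of all 7886 genes. Without oocyte controls 1 and 2 these were 2 below and 1 above 0, against 222 and 377 of 7886. The list had a median change of 0.34 in granulosa cells and -0.42 in oocytes, against -0.03 and -0.10 over all 7886 genes. In that setting the oocyte median was -0.007, and the interaction median went from -0.81 to -0.51. Without granulosa blebbistatin libraries 1 and 2, which held 608 and 913 CPM of macrophage markers, the granulosa median was 0.235. Ftl1, the ferritin light chain, stood at 1642, 1725, 1391 and 1923 CPM in granulosa controls and at 3534, 3969, 3150 and 3009 CPM with blebbistatin. In oocytes it stood at 100.9, 308, 79.7 and 46.1 CPM in controls and at 133, 113, 67.9 and 45.5 CPM with blebbistatin. The highest granulosa values were those of blebbistatin libraries 1 and 2, and the part of macrophage RNA in them was not tested. Granulosa groups did not overlap and oocyte groups did, with an interaction of -1.61 ± 0.62 (SE, adjusted p = 0.348, edgeR). It was -0.52 without oocyte controls 1 and 2 and -0.37 without all 4 libraries in doubt. The highest oocyte value was that of control 2, the library with the most granulosa RNA, and the part of that RNA was not tested. Fth1, the heavy chain, had granulosa means of 1216 ± 259 and 2034 ± 406 CPM without overlap and oocyte means of 205 ± 96.0 and 154 ± 9.63 CPM. Its interaction was -1.16 ± 0.31 (adjusted p = 0.187, edgeR), and -0.81 and -0.59 in the same reduced settings. Gclm, of glutathione synthesis, had an interaction of -0.98 ± 0.35 (adjusted p = 0.32) with an oocyte fold of 0.592. Ferritins, actins and ribosomal proteins have near-identical copies elsewhere in the genome, so the division of their reads is uncertain.

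Of the chaperones, 11 of 16 were genes of both cell types, 0 were called and the median interaction was -0.29, or 0.06 without oocyte controls 1 and 2. Hsp90ab1, a constitutive chaperone, had means of 2284 ± 222 and 2634 ± 233 CPM in granulosa cells and 531 ± 180 and 384 ± 66.8 CPM in oocytes (SD, n = 4). Its oocyte control 2, the library with the most granulosa RNA, stood at 801 CPM, and the other 3 controls at 421 to 458 CPM. In the lysosome and proton pump list all 17 genes of both cell types lay below 0, against 4829 of all 7886 genes, with 5 at an unadjusted p under 0.05 (570 of all 7886), 0 called, and a median of -0.44. The median was -0.18, with 2 below and 1 above 0 at that p, without oocyte controls 1 and 2. It was 0.11 without all 4 libraries in doubt, with 6 of 17 below 0. Lamp1, a lysosomal membrane protein, had folds of 1.52 in granulosa cells and 0.77 in oocytes and an interaction of -0.98 ± 0.27 (adjusted p = 0.199). For the 27 proteasome genes the median was -0.08, close to that of all genes.

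The mitochondrial genome gave the widest median difference of any list. All 11 mitochondrially encoded genes of both cell types had an oocyte change below the granulosa change, 10 of them at an unadjusted p under 0.05, against 570 of all 7886 genes, and 0 passed the adjusted test. The median log2 change was 0.90 in granulosa cells and -1.46 in oocytes, and the median interaction -2.61. mt-Nd5, a subunit of complex I, stood at 1219, 1675, 747 and 962 CPM in granulosa controls and at 3743, 1360, 4298 and 2391 CPM with blebbistatin. In oocytes it stood at 96.7, 212, 30 and 57.7 CPM in controls and at 45.0, 37.5, 21.3 and 30.5 CPM with blebbistatin. The groups overlapped in both cell types, and the highest oocyte values were those of controls 1 and 2. Its interaction of -2.92 ± 0.69 did not pass (adjusted p = 0.127, edgeR), nor did that of mt-Nd6, -2.74 ± 0.64 (adjusted p = 0.126). These genes overlap on opposite strands, so reads from the stretch they share cannot be told apart. Without oocyte controls 1 and 2 the oocyte median became 0.56 and the median interaction -0.28, with 2 genes below 0 at an unadjusted p under 0.05.

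The nuclear genes of oxidative phosphorylation lay around 0. Of 30, all in both cell types, 13 lay below 0 and 17 above, with 0 at an unadjusted p under 0.05 and a median interaction of 0.05. Uqcrq, a subunit of complex III, had granulosa means of 248 ± 53.1 and 185 ± 9.69 CPM and oocyte means of 149 ± 17.6 and 147 ± 18.7 CPM (SD, n = 4). Glycolysis and hypoxia genes lay on the other side: 11 of 15 had an oocyte change above the granulosa change, with a median interaction of 0.30 that was 0.71 without oocyte controls 1 and 2. The median was -0.62 in granulosa cells and -0.30 in oocytes, and 0 genes were called or had an unadjusted p under 0.05. Pkm, the pyruvate kinase, had granulosa means of 1660 ± 661 and 1033 ± 199 CPM and oocyte means of 926 ± 80.5 and 882 ± 77.1 CPM.

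Among the 31 cytosolic ribosomal proteins 26 lay below 0, with a median of -0.19 that was 0.001 without oocyte controls 1 and 2, and 0 were called. Rpl22l1, a paralog of a ribosomal protein, had granulosa values of 107 to 150 CPM in controls and 202 to 218 CPM with blebbistatin, an oocyte fold of 0.842 and an interaction of -0.95 ± 0.27 (adjusted p = 0.199, edgeR). Translation factors had a median of -0.28, or -0.02 without oocyte controls 1 and 2, with 0 of 16 called. Eif3a, a subunit of the initiation complex, stood at 133 and 126 CPM in oocyte controls 1 and 2 and at 57.6 and 49.4 CPM in controls 3 and 4, against 42 to 72.8 CPM with blebbistatin.

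The remaining lists held 0 called genes. Of 15 tubulin and microtubule genes, 13 were genes of both cell types, with a median interaction of -0.41. At an unadjusted p under 0.05, 3 of the 13 lay below 0, Tuba4a among them, against 570 of all 7886 genes. The median was 0.02, with 3 below 0 at that p, without oocyte controls 1 and 2. For cell cycle and replication the median of 24 genes was 0.02, with 10 below 0, and it was 0.23 without those controls. The 18 cholesterol genes had a median of -0.25, and 0.17 without them. The 18 genes of the unfolded protein and ATF4 response had a median of -0.14, and 0.37 without them. The p53 and apoptosis list, with 8 genes, had -0.52 and 0.13 in these settings, and the 6 genes of interstitial matrix and cross-linking had -1.73 and 0.74. The 5 immediate early genes had -0.34 and -0.35, and -0.03 without granulosa blebbistatin libraries 1 and 2. Basement membrane genes, 4 in number, had -0.08 and 0.15.

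Genes of signalling between the cell types lay far apart with and without oocyte controls 1 and 2. The reduced set kept oocyte blebbistatin library 1, whose level of granulosa genes was 1.54% of the granulosa controls. In the oocyte controls kept it was 0.287% and 0.0939%. In the BMP, TGF-beta and activin list all 8 genes of both cell types lay below 0 with a median of -1.51, and without oocyte controls 1 and 2 the median was 1.60, with 2 of 8 below 0. None was called. Inha, the inhibin alpha subunit of granulosa cells, stood at 333, 1883, 41.0 and 13.1 CPM in oocyte controls and at 232, 56.6, 51.2 and 17.9 CPM with blebbistatin. Its interaction was -2.17 ± 1.45 with all libraries and 2.22 without oocyte controls 1 and 2. Inhbb, an inhibin and activin beta subunit, went from -1.93 to 2.73 and Gja1, the main gap junction protein of granulosa cells, from -2.30 to 3.03 in the same settings. Inhbb was also lower in granulosa cells, from 473 ± 266 to 90.1 ± 19.5 CPM (SD, n = 4), without overlap and without passing the test (adjusted p = 0.331, edgeR).

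Id1 and Id2, targets of BMP signals that block differentiation factors, had an interaction below 0 in every alternative run. Id2 had granulosa values of 42.8, 45.4, 71.7 and 70.8 CPM in controls and 155, 88.4, 113 and 105 CPM with blebbistatin, without overlap. In oocytes it stood at 9.73, 8.52, 5.92 and 6.27 CPM in controls and 3.70, 4.43, 5.99 and 5.21 CPM with blebbistatin, where only library 3 reached the range of the controls. The interaction was -1.65 ± 0.38 (adjusted p = 0.126, edgeR). Id1, a gene of the granulosa side, rose there from 23.1 ± 1.16 to 61.4 ± 24.5 CPM (SD, n = 4; adjusted p = 0.04997), with oocyte means of 2.65 ± 1.27 and 1.501 ± 0.52 CPM and an interaction of -2.23 ± 0.48 (adjusted p = 0.0909). Both also stood higher in granulosa cells with dextran, at 70.6 ± 16.9 CPM for Id1 and 139 ± 8.21 CPM for Id2.

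In the FSH response and steroidogenesis list 10 of 13 genes lay below 0 with a median of -0.64, which became 1.78 without oocyte controls 1 and 2, and 0 were called. Kitl, the ligand that granulosa cells send to the oocyte receptor Kit, had granulosa means of 89.5 ± 32.2 and 125 ± 54.7 CPM and oocyte means of 13.2 ± 7.24 and 6.84 ± 3.81 CPM (SD, n = 4). Its interaction was -1.42 ± 0.67 (adjusted p = 0.433, edgeR). The secreted factors and coat proteins of the oocyte stood near their control levels in oocytes. Gdf9, the oocyte growth factor, had oocyte means of 7168 ± 2175 and 8742 ± 1878 CPM, Bmp15, its partner, of 1765 ± 547 and 1908 ± 218 CPM, and Zp3, of the zona pellucida, of 2672 ± 101.4 and 2707 ± 344 CPM. Kit had oocyte means of 253 ± 98.8 and 224 ± 19.9 CPM. For these 4 genes of the oocyte side the interaction did not pass (adjusted p from 0.377 to 1), and in the granulosa libraries Gdf9, Bmp15 and Zp3 were each at most 2.05 CPM.

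**Figure D4:**
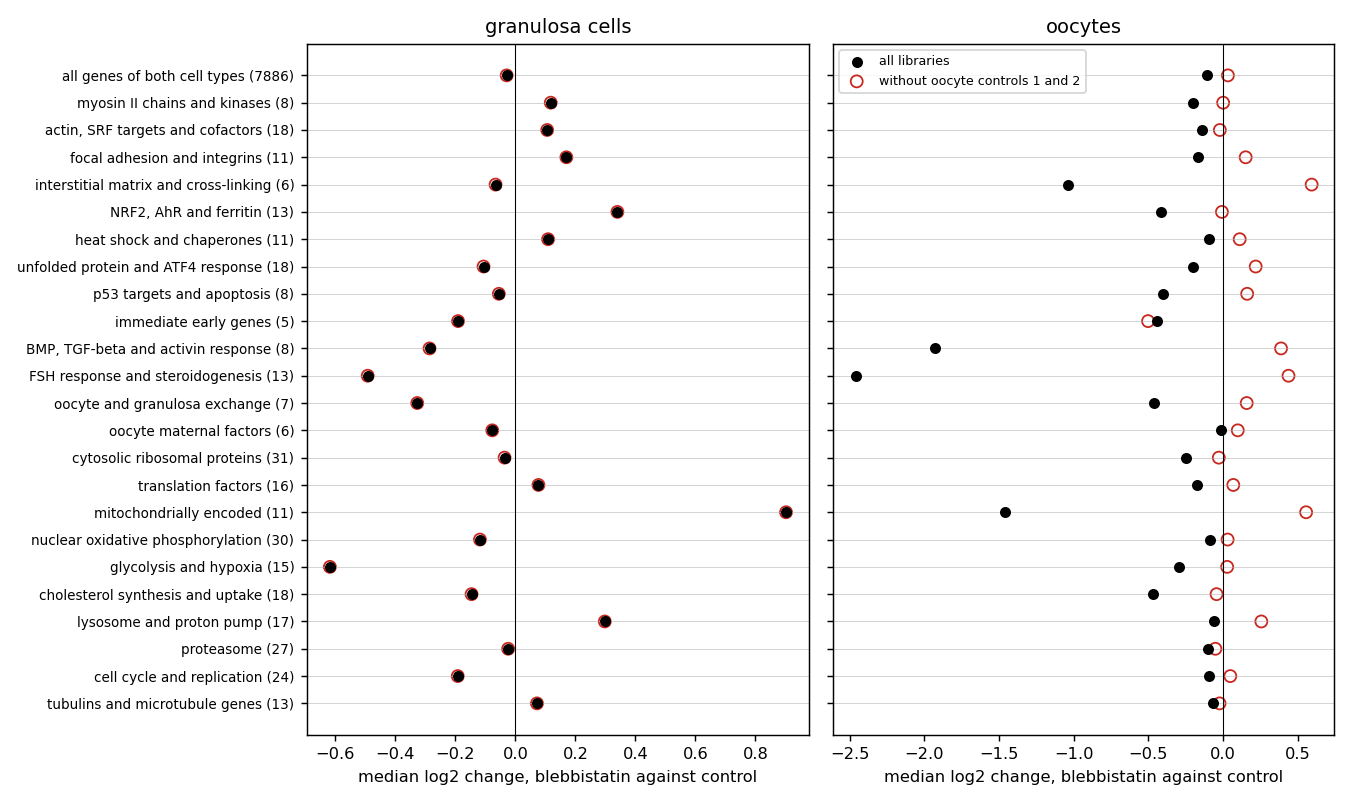
Median log2 change after blebbistatin of the genes of both cell types in each list (number of genes in brackets), in granulosa cells and in oocytes, with all libraries (filled) and without oocyte controls 1 and 2 (open). The oocyte median of the mitochondrially encoded list moves from -1.46 to 0.56. The granulosa change uses no oocyte library, so leaving out oocyte controls cannot move its medians.

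Genes of one cell type supplied the remaining calls. On the oocyte side 6 genes passed, all with an oocyte change above the granulosa change, and for each the granulosa libraries held a trace in controls and less or none with blebbistatin. Kcnh1, a voltage-gated potassium channel, had 2.89, 2.20, 1.18 and 1.19 CPM in granulosa controls and 0, 0.159, 0.39 and 0 CPM with blebbistatin, or 172 against 11 counts. Its oocyte level was 436 ± 26.4 CPM in controls and 402 ± 35.4 CPM with blebbistatin (SD, n = 4), and its interaction 3.56 ± 0.60 (adjusted p = 0.0304, edgeR). Htra4, a serine protease, gave 85 counts in the granulosa controls and 1 with blebbistatin, a ratio of 73.5 (95% exact interval 12.8 to 2940). Ocln, the occludin of tight junctions, gave 117 counts against 0, which is at least 33.7-fold lower with a floor of 3 counts over the group. Mapk11, a stress-activated kinase, gave 54 counts against 0, at least 15.6-fold lower. Jag2, a Notch ligand named after its values were seen, gave 103 counts against 1, a ratio of 89.0 (15.6 to 3550). The intervals and floors cover counting error only. In oocytes these 5 genes stood at 0.922 to 1.57 of their control level. In the granulosa controls they stood at 0.427% (Kcnh1) to 5.62% (Ocln) of their oocyte control level, where the 7 oocyte genes measured above were at most 0.0228% in a granulosa library. Granulosa blebbistatin libraries also had fewer genes detected, 18450 ± 2790 against 22710 ± 1480 in controls (SD, n = 4). The parts of oocyte RNA and of this lower detection in the trace counts were not tested.

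Fbxl21, an F-box protein also named after its values were seen, was under 5 CPM in both cell types. It gave 90 against 2 counts in granulosa cells, a ratio of 38.9 (10.5 to 326). The other 2 calls were predicted genes, 1 on the oocyte side and 1 under the level in both. On the granulosa side 0 of 2129 genes passed, and 393 had an unadjusted p under 0.05, with 21 above and 372 below 0. Without oocyte controls 1 and 2 these were 251 above and 57 below, and the median oocyte change of the granulosa side moved from -0.81 to 0.38. Oocyte blebbistatin library 1, with more granulosa RNA than the controls kept, stayed in that setting.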

How the data were processed

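RNA was sequenced from oocytes and granulosa cells in 6 groups of 4 libraries. The authors deposited estimated counts per gene from salmon in 2 tables, 1 per cell type, per the labels, on build GRCm39, per the submitters' processing notes. Its annotation, software versions and strand setting: not given in the sources used here. Tables were joined on the gene identifier, with 0 sample columns unused, and counts rounded. Genes passing filterByExpr were fitted over 24 libraries with TMM factors and edgeR 4.0.16 (glmQLFit, robust; glmQLFTest) in R 4.3.3, with Benjamini-Hochberg adjustment over 20601 genes and a threshold of 0.05. CPM are scaled by these factors. Counting intervals take each read as a molecule, which PCR without molecular identifiers does not assure. limma 3.58.1 voom, DESeq2 1.42.0, other scalings and filters, a replicate block and left-out libraries were alternatives. Scripts were tested on simulated data. The comparison, gene lists and rule for named genes were chosen with earlier results of these data known. Genes were named by smallest p in each direction (10 that passed, or 5 where fewer than 3 did; 4 per side for genes of one cell type; up to 2 per list) plus 21 fixed genes of mechanics and follicle function. No list was tested.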

Additional observations from a re-analysis of the deposited data

Results flagged for a closer look

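The response differed between the cell types, by the interaction test with edgeR, in 10 genes. The adjusted p was 0.0067 for Htra4 and 1700016H13Rik, 0.0261 for Uchl1, 0.0304 for Fbxl21, Kcnh1 and Ocln, 0.0443 for 9130204K15Rik and Mapk11, 0.046 for Tpm1 and 0.0499 for Jag2. The predicted genes gave 1 against 102 counts (1700016H13Rik, ratio of control to blebbistatin 88.2, 95% exact interval 15.5 to 3520) and 2 against 32 counts (9130204K15Rik, 13.8, 3.53 to 119) in granulosa cells.

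A library stood far from the other 3 of its group in 27 of 240 groups checked over 60 genes. The cut used is passed by about 5% of groups of independent normal values. Some of the flagged groups held reads in 1 library alone, which always passes the cut, and the genes share libraries. The count can therefore not be set against chance. In oocyte control 2, the library with the most granulosa RNA, the highest value was 171 CPM for Rad23b, 349 for Fth1, 801 for Hsp90ab1, 32.5 for Rpl22l1, 0.135 for Fhl2 and 0.0677 for Ccn2. Among the other oocyte controls, Gclm was lowest in library 1 (19.7 CPM) and Uqcrq highest in library 3 (175 CPM). In granulosa blebbistatin library 1, Anp32b (260 CPM) and Uqcrq (170 CPM) were lowest and Eif3d (302.0 CPM) and Kit (21.2 CPM) highest. In granulosa blebbistatin library 2, the highest values were 1.22 CPM for Nrsn1, 0.053 for Htra4 and for Zp3, 0.106 for Fbxl21 and 1330 for Pkm, and in library 4 Jag2 was highest at 0.0544 CPM. Among granulosa controls, Gclm (85.3 CPM) and Ccn2 (3.25 CPM) stood out in library 4, Bmp15 (0.285 CPM) in library 2, and Gdf9 was lowest in library 1 (0.425 CPM). In oocyte blebbistatin libraries, Hsp90ab1 (484 CPM) and Gja1 (99.7 CPM) were highest in library 1, Myl9 (0.509 CPM) in library 2, and Fbp1 (107 CPM) and Pkm (767 CPM) lowest in library 4.

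Of the marker lists, granulosa markers summed highest in oocyte blebbistatin library 1 (795 CPM), oocyte markers in granulosa blebbistatin library 1 (34.6 CPM) and surface epithelium markers in granulosa blebbistatin library 2 (19.2 CPM). In oocyte control 4, erythroid markers reached 107 CPM and oocyte markers were lowest, at 15784 CPM.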

How the results depend on the processing

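With all libraries, edgeR called 10 genes by the interaction, 2 of them genes of both cell types, 0 in oocytes and 127 in granulosa cells, in that order below. DESeq2 gave 382, 81, 193 and 689, limma voom 18, 1, 2 and 448, and fitting each cell type apart 0, 0, 0 and 1. The 16 libraries compared, without dextran, gave 0 genes of both cell types and 63 in granulosa cells. Median-of-ratios factors gave 1 gene of both cell types, no filter 68 genes in granulosa cells, voom with library weights 354 there, and a level of 1 CPM 6 genes of both cell types. With a replicate block within each cell type the counts were 88, 6 and 17, but the numbers were not taken to pair the libraries, since same-numbered libraries correlated at -0.0606 to 0.148 in their deviations. Leaving out 1 library at a time gave 2 to 106, 0 to 27, 0 to 140 and 42 to 474. The highest values came without granulosa blebbistatin library 2 and, for oocytes, without oocyte control 4, and 42 came without granulosa control 3. Of alternatives added after seeing the data, leaving out oocyte controls 1 and 2 gave 3, 0, 4 and 77, granulosa blebbistatin libraries 1 and 2 gave 96, 30, 1 and 220, and all 4 gave 63, 18 and 2. The cause was not tested.

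Among 60 named genes, the interaction changed sign in 24 of the gene and alternative pairs, in 11 genes. Leaving out oocyte controls 1 and 2 gave 0.30 for Myh10, 0.09 for Actg1, 1.92 for Fhl2, 0.02 for Ccn1, 2.22 for Inha, 2.73 for Inhbb and 3.03 for Gja1. Without all 4 libraries it was 0.06 for Wdr59, 0.38 for Myh10, 1.75 for Fhl2, 2.21 for Inha, 2.65 for Inhbb, 2.93 for Gja1 and 1.09 for Kit. Without granulosa blebbistatin libraries 1 and 2 it was -0.27 for Gdf9 and 0.61 for Kit. For Myl9 it was -1.79 with voom and -1.94 with voom and weights, and for Kit 0.16 with voom and weights. Leaving out 1 library at a time gave -0.77 to 0.29 for Myh10, -2.34 to 2.31 for Myl9, -2.73 to 1.90 for Fhl2, -0.02 to 2.27 for Gdf9 and -1.26 to 0.54 for Kit. The sign turned without oocyte control 2 for Myh10 and Fhl2, without oocyte blebbistatin library 2 for Myl9 and without granulosa blebbistatin library 1 for Gdf9 and Kit.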
